A study of Mus musculus with 14 samples.

Results

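Peaks at the 9 genes of YAP, TAZ, the TEAD factors and the VGLL cofactors were examined in 6 consensus CUT&Tag peak lists from mouse muscle stem cells (MuSCs). The genes were chosen by name as Yap1, Wwtr1 (which encodes TAZ), Tead1, Tead2, Tead3, Tead4, Vgll2, Vgll3 and Vgll4, and they are 9 of the 21757 protein-coding genes that were searched. A peak was assigned to a gene when it overlapped the canonical GENCODE transcript on GRCm39 or the 20 kb on either side by at least 1 bp. Distances are given from the transcription start site (TSS) to the summit of the peak, along the direction of transcription. Rank 1 is the peak with the highest signal of its list.

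The cells came from limb, back and breast muscles of female C57BL/6N(Tg(Pax7-EGFP)Tajb) mice at an age of 9 weeks, in which the Pax7 promoter drives EGFP. They were cultured for 1 day at 3% O2, sorted for GFP and cultured for 2 more days. All cells, those of the control included, were then kept for 6 h without serum and with 200 ng/mL of the soluble receptor BMPR-1A-Fc. BMP6-stimulated cells next received 100 ng/mL BMP6 for 1 h and control cells the vehicle, 4 mM HCl with 0.1% BSA. Each of the 14 libraries was made from 100000 cells fixed for 2 min in 0.1% formaldehyde, and 12 of them, 2 biological replicates for each antibody (pSMAD1/5/9, SMAD4 or H3K27ac) and condition, entered the lists. The sort selects by the Pax7 reporter, so that the cells are MuSCs as far as this reporter defines them, and they had been in culture before stimulation.

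YAP and TAZ are transcriptional coactivators without a DNA-binding domain of their own. The kinases of the Hippo pathway phosphorylate them and keep them out of the nucleus, and in the nucleus they act mainly through the TEAD factors, which bind the MCAT element. VGLL proteins bind TEADs in place of YAP and TAZ: VGLL4 is known as a competitor of YAP, and VGLL2 and VGLL3 as TEAD cofactors in skeletal muscle. BMPs signal through phosphorylated SMAD1/5/9, which enter the nucleus with SMAD4. H3K27ac is a histone mark of active promoters and enhancers.

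The sequences at the pSMAD1/5/9 summits are shown for members that carried such a peak in BMP6-stimulated cells, which Yap1 and Tead2 did not. Each is the summit with the 50 bases on either side, on the GRCm39 plus strand, for the strongest pSMAD1/5/9 peak whose window holds no annotated UTR. Capitals mark matches, on either strand, to GGAATG (the core of the TEAD site), GGCGCC or GGAGCC (SMAD sites of BMP-responsive genes), GTCTAGAC (SMAD palindrome), CAGCTG (E-box) and TGACTCA or TGAGTCA (AP-1).
Vgll4, chr6:114871012-114871112, intron 1: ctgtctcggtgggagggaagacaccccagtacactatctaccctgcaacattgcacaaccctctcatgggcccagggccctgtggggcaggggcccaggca
Tead4, chr6:128242277-128242377, intron 2: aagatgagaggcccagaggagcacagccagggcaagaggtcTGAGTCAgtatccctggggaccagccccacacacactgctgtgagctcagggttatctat
Tead3, chr17:28559714-28559814, intron 2: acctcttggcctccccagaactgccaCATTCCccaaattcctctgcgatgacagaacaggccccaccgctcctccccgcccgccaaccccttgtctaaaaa
Tead1, chr7:112517180-112517280, downstream: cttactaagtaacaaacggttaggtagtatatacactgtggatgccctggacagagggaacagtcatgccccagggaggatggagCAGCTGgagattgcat
Wwtr1, chr3:57443395-57443495, intron 2: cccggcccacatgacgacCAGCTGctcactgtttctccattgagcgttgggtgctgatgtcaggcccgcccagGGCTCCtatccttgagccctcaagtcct
Vgll3, chr16:65615836-65615936, intron 1: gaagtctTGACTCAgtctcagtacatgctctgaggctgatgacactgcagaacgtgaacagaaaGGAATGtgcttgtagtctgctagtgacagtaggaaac
The window of Vgll4 held none of these letters, that of Tead3 held a TEAD core, and that of Vgll3 held a TEAD core and an AP-1 match. For Vgll3 the window of the stronger peak, at the TSS, overlapped a UTR, so that the weaker peak is shown, and for Vgll2 no peak was left by this rule.

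After BMP6, the list of 7339 pSMAD1/5/9 peaks placed 28 of them at 7 of the 9 members (77.8%), whereas 29.1% of all protein-coding genes had such a peak. Long genes offer more room for a peak. Of the 15591 genes with regions between the shortest and the longest of the members, from 46.3 to 267 kb, 31.3% had a pSMAD1/5/9 peak. Lengths were not matched within this range, and the part of length in these shares was not tested. In control cells 4 of 949 pSMAD1/5/9 peaks lay at 4 members (44.4%), set against 5.97% of all genes and 6.38% of those in this range. SMAD4 had 32 of 12860 peaks at 7 members (77.8%) after BMP6, against 39.3% of all genes and 42.8% of those in this range. In control cells SMAD4 had 31 of 8577 peaks at 6 members (66.7%), against 30.8% and 33.2%. H3K27ac was listed at all 9 members in both conditions, with 135 peaks after BMP6 and 140 in control cells, and at 74.8% and 73.4% of all genes. Each list is 1 consensus of 2 replicates, so that no replicate error belongs to these counts, and the members were not drawn at random from the genes they are set beside.

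**Figure D1:**
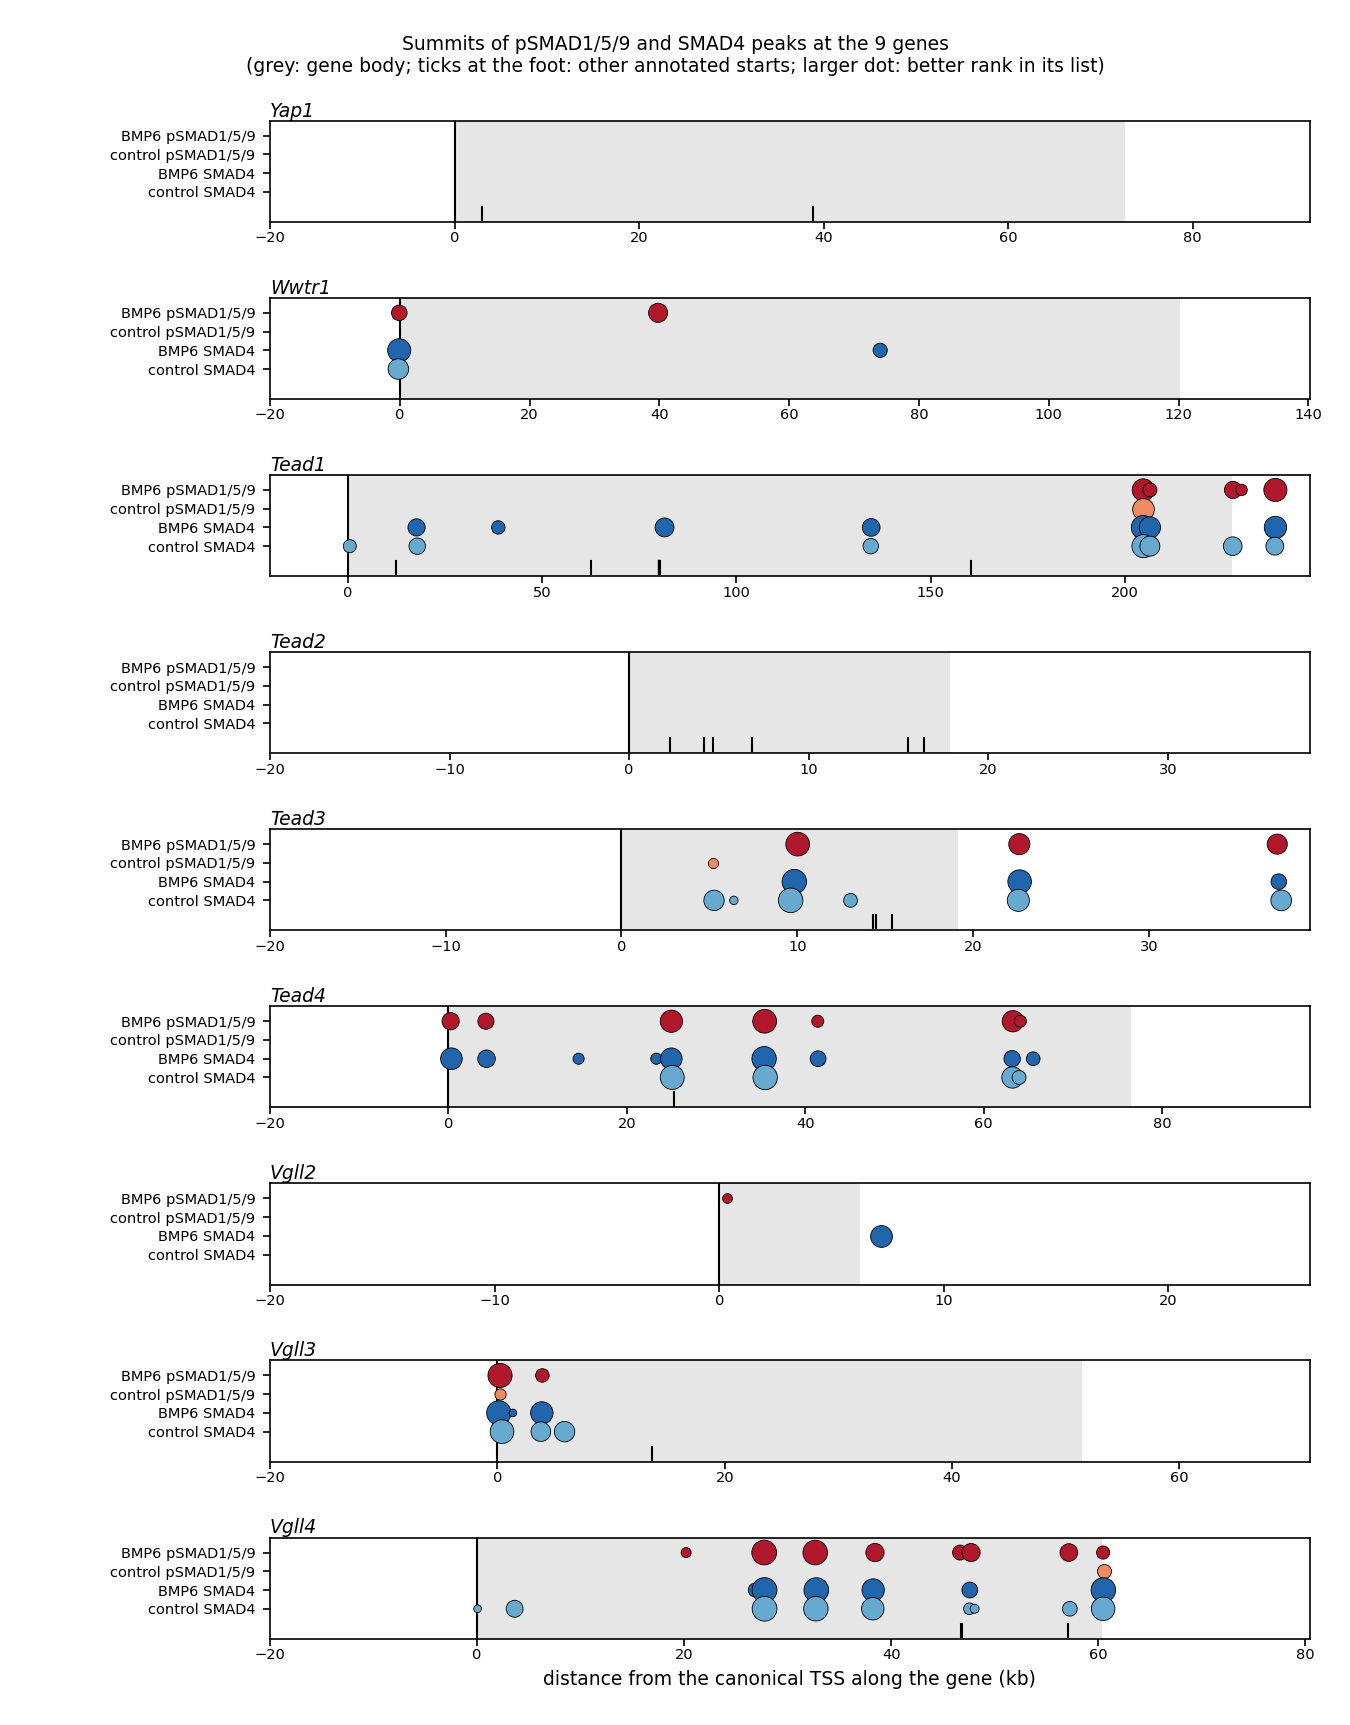
Distance of each pSMAD1/5/9 and SMAD4 summit from the canonical TSS (x axis, kb, a scale of its own for each gene) at the 9 genes, with 1 row for each list; the grey band is the gene body, the ticks at the foot are other annotated starts, and a larger dot has a better rank in its list. Yap1 and Tead2 have no dot in any list, Vgll4 has 8 dots for pSMAD1/5/9 after BMP6 and 1 in control cells, and the pSMAD1/5/9 dots of Tead1 all lie beyond 200 kb from its TSS.

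Among the coactivators, Yap1 had no pSMAD1/5/9 or SMAD4 peak in either condition, although its region spans 113 kb. This depends on the flank of 20 kb, as does the same absence at Tead2. With 50 kb on either side, 8 of the 9 members had pSMAD1/5/9 after BMP6, and 8 had SMAD4 after BMP6. Either Yap1 or Tead2 thus had such a peak farther out. The promoter and region of Yap1 itself were described as follows. Its promoter was marked by H3K27ac, with a peak that ranked 9492 of 78050 after BMP6 and 5876 of 67790 in control cells, and 14 and 10 H3K27ac peaks lay in the region. The 20 kb on either side reach into 1 other gene, Cfap300.

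Wwtr1 carried 2 pSMAD1/5/9 peaks after BMP6 and none in control cells. The stronger lay in intron 2, 39.8 kb from the TSS, and ranked 3272 by consensus, 3844 and 2607 by the signal of either replicate, and no SMAD4 peak was listed there. The other lay at the TSS, 73 bp upstream, and ranked 4868. SMAD4 occupied this promoter in both conditions, at rank 1888 after BMP6 and rank 2959 in control cells. A weaker SMAD4 peak at exon 3, 74.0 kb from the TSS, was listed after BMP6 only, at rank 9452. The promoter lay within an H3K27ac peak of rank 944 after BMP6 and 877 in control cells.

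The 4 TEAD genes differed in how much SMAD binding was listed in the body and 20 kb flanks. Tead2 had none, Tead3 had 3 pSMAD1/5/9 peaks after BMP6, Tead1 had 5 and Tead4 had 7. Tead2 also had the weakest promoter mark of the 9 members, an H3K27ac peak of rank 29819 after BMP6 and 27028 in control cells, which was its only one in either list. Its region of 57.9 kb is shared with Cd37, Dkkl1, Kash5 and Slc6a16, so that neighbouring genes had no SMAD peak within it either.

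The pSMAD1/5/9 peaks of Tead1 all lay at the 3′ end of the gene. The first pair lay in intron 11, at 205 kb (rank 1597) and 206 kb (rank 5444) from the TSS, and the replicates placed the former at ranks 3089 and 715. The other 3 lay downstream of the transcript, at 228, 230 and 239 kb, and the last was the strongest, at rank 1062. For all 5 the nearest canonical protein-coding TSS was that of Rassf10, between 35.9 and 69.9 kb away, so that assignment by nearest canonical TSS leaves Tead1 without a pSMAD1/5/9 peak. For the pair in intron 11 another annotated start of Tead1 lay nearer than Rassf10, at 44410 and 46103 bp. The site at 205 kb was 1 of only 3 at the members that were listed in all 4 SMAD lists. Its control pSMAD1/5/9 peak, at rank 242 of 949, was the strongest of the 4 control peaks at the members, with a signal of 21920 and 21508 in the replicates. SMAD4 ranked 1071 there after BMP6 and 1224 in control cells.

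Of the SMADs, only SMAD4 was listed at Tead1 between the TSS and 135 kb. Peaks 17.7 and 135 kb from the TSS were shared by both conditions, those at 38.7 and 81.5 kb were listed after BMP6 only, and that at 533 bp in control cells only. The peak at 81.5 kb lay 1293 bp downstream of the nearest annotated start of a shorter Tead1 transcript. They ranked between 5248 and 9942 in their lists.

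Tead3 is a short gene with close neighbours. Its strongest pSMAD1/5/9 peak after BMP6 overlapped exon 2, with the summit in intron 2, 10.0 kb from the TSS. It ranked 710 by consensus, with a signal of 33306 in the replicate of the first column and 14153 in the other, which place it at ranks 449 and 1649. SMAD4 occupied the site in both conditions, at rank 474 after BMP6 and 242 in control cells, while no pSMAD1/5/9 peak was listed there in control cells. The other 2 pSMAD1/5/9 peaks were 9 bp from the TSS of Rpl10a (rank 2213) and 12 bp from that of Fance (rank 2758), and they belong to Tead3 only by the 20 kb flank.

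Tead3 was the exception among members in one respect: its control pSMAD1/5/9 peak, 5219 bp from the TSS in intron 1, had no counterpart after BMP6. It ranked 862 of 949, and the −log10 of its IDR was 1.37. None of the 4 control pSMAD1/5/9 peaks at the members had an IDR under 0.01, and the values were 1.35 (Vgll4), 1.37 (Tead3), 1.39 (Vgll3) and 1.70 (Tead1). A control SMAD4 peak overlapped it at rank 3079. Of the 6 control SMAD4 peaks of Tead3, 3 overlapped none after BMP6.

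Tead4 carried 7 pSMAD1/5/9 peaks after BMP6 and none in control cells, and only 76 of the 21757 genes had as many. Genes were not matched in region length for this count. Of the 7 peaks, 3 had an IDR of at most 0.01. The strongest lay in intron 2, 35.4 kb from the TSS, at rank 679. Its signal was 35069 in the first replicate column and 13322 in the second, at ranks 385 and 1843, so that its place among Vgll3, Tead3 and Tead1 is not fixed by these replicates. SMAD4 was listed at this site in both conditions, at rank 518 after BMP6 and rank 331 in control cells.

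The next strongest pSMAD1/5/9 peak of Tead4, 24994 bp from the TSS at rank 1599, lay 242 bp upstream of another annotated start of the gene, that of a shorter protein-coding transcript. SMAD4 was at rank 3494 there after BMP6 and at rank 703 in control cells. The strongest H3K27ac peak of Tead4 in control cells, at rank 2323, also covered this start. The peak at the canonical TSS (249 bp, rank 4160) and that at 4203 bp (rank 4654) overlapped SMAD4 after BMP6 but no SMAD4 peak in control cells, as did that at 41.4 kb (rank 6142). These were the only 3 SMAD sites at the members with this combination. In all, Tead4 had 10 SMAD4 peaks after BMP6 and 4 in control cells.

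Among the VGLL cofactors, Vgll2 had the least SMAD binding. Its only pSMAD1/5/9 peak, 333 bp from the TSS, ranked 6777 of 7339, and its only SMAD4 peak, 7.21 kb from the TSS and past the end of the canonical transcript, ranked 3231 of 12860. Both were listed after BMP6 only, they did not overlap, and neither had an IDR under 0.01. The SMAD4 peak lay within the span of a longer annotated transcript of Vgll2. H3K27ac at the promoter ranked 1244 after BMP6 and 1487 in control cells.

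Vgll3 was the member with the strongest promoter binding. The pSMAD1/5/9 peak at its TSS, with the summit at 234 bp in exon 1, ranked 455 after BMP6, and the replicates placed it at 499 and 478. The same promoter had a control pSMAD1/5/9 peak, at rank 824 of 949 with the summit at 247 bp. SMAD4 ranked 591 there after BMP6 and 837 in control cells. A weaker site in intron 1, 3.96 kb from the TSS, had pSMAD1/5/9 at rank 5626 after BMP6, and SMAD4 at rank 2636 after BMP6 and 3522 in control cells. The promoter of Vgll3 also had the best-ranked H3K27ac of the 9 TSSs, at rank 511 after BMP6 and 793 in control cells.

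Vgll4 had the best rank of the 9 members in each SMAD list except that of control pSMAD1/5/9, where Tead1 ranked 242 and Vgll4 708 of 949. After BMP6 it had 8 pSMAD1/5/9 peaks, and only 48 of the 21757 genes had as many, without matching for region length. Of the 8 peaks, 3 had an IDR of at most 0.01. The strongest lay in intron 1, 27.7 kb from the TSS, from 114870391 to 114871770 on chromosome 6. It ranked 73 of 7339, with a signal of 54797 and 38078 in the replicates and ranks of 82 and 73. It was thus among the strongest 0.995% of the list. The −log10 of its IDR was 5.00, the cap of this value, which other peaks in the lists also reached. The peak next in strength, at 32.7 kb in intron 2, ranked 161, with a signal of 49663 and 26943 in the replicates and ranks of 133 and 308. Exon 2 lies between both peaks.

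No control pSMAD1/5/9 peak was listed at either of these sites, while SMAD4 was listed at both in both conditions. At 27.8 kb SMAD4 ranked 38 of 12860 after BMP6 and 75 of 8577 in control cells, which were the best SMAD4 ranks of any member in either list. The replicates placed it at 56 and 29 after BMP6 and at 113 and 44 in control cells. At 32.8 kb SMAD4 ranked 260 after BMP6 and 300 at 32.7 kb in control cells.

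The other 6 pSMAD1/5/9 peaks of Vgll4 ranked between 3676 and 6718. That at 46.7 kb lay 74 bp upstream of the start of a transcript annotated inside the gene, and that at 57.2 kb lay 85 bp downstream of another such start. Neither transcript has an annotated coding sequence. At the 3′ end, 60.5 kb from the TSS, pSMAD1/5/9 was listed in both conditions, at rank 5771 after BMP6 and 708 of 949 in control cells, and SMAD4 at ranks 401 and 993. At the canonical TSS no pSMAD1/5/9 peak was listed, and SMAD4 was listed in control cells only, at rank 8454 of 8577.

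**Figure D2:**
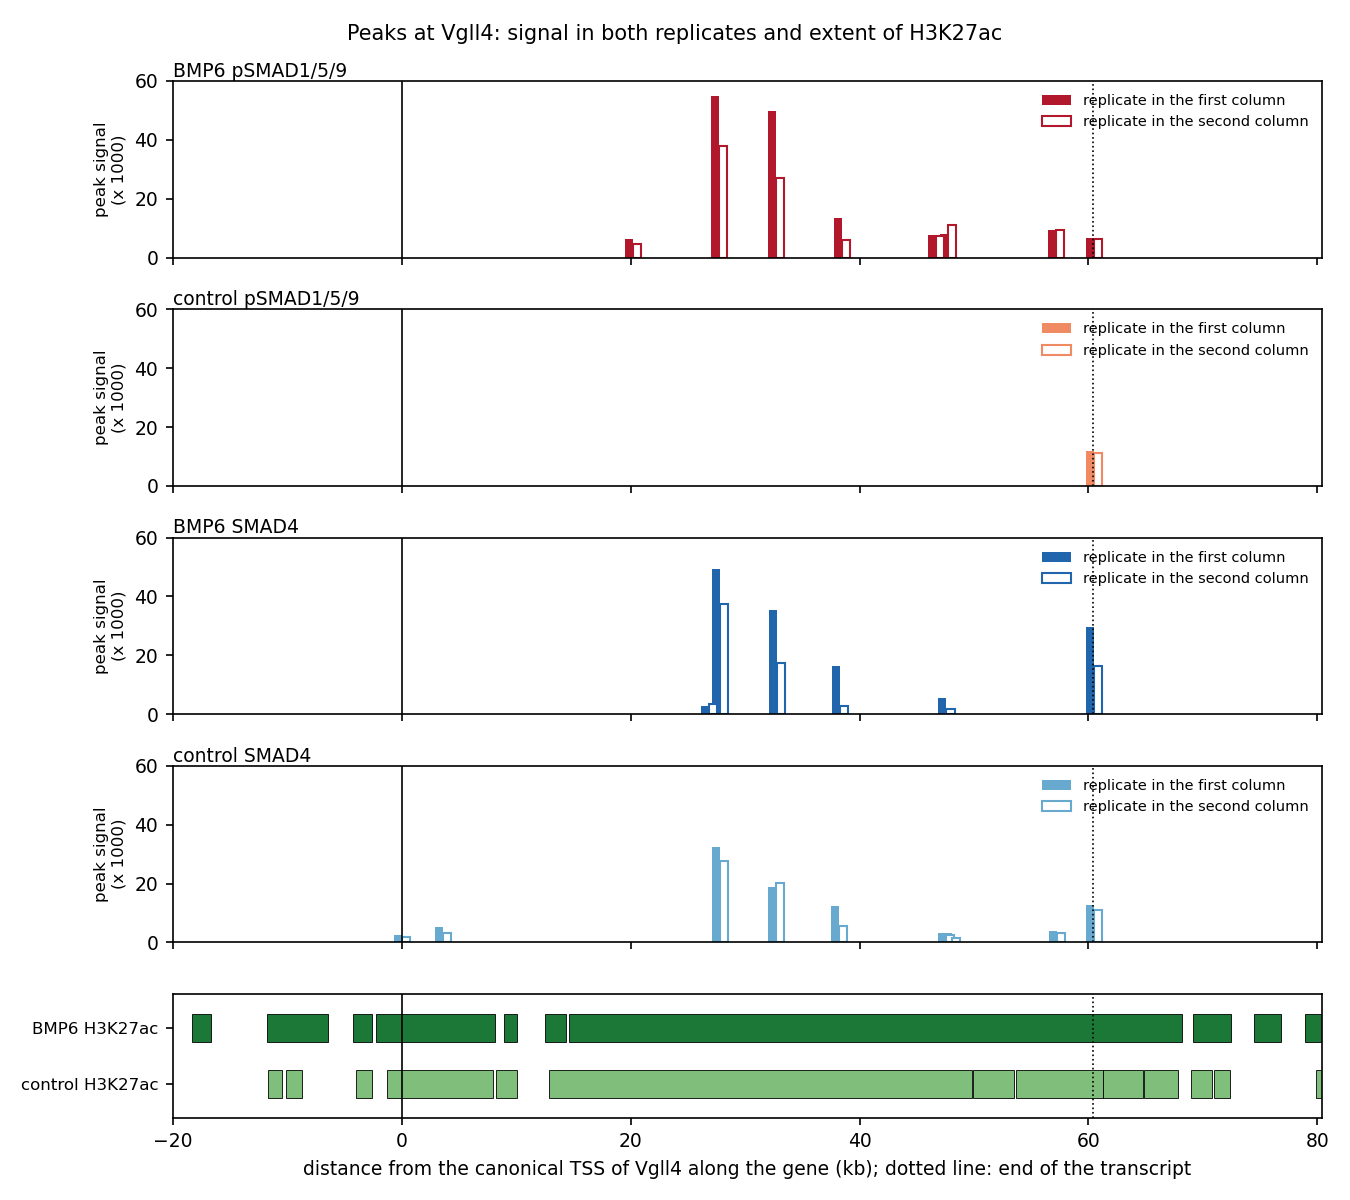
Signal of each peak at Vgll4 in the replicates of the first (filled) and second (open) column (y axis, units of the peak caller, to be compared within a list only) against distance from the canonical TSS (x axis, kb), with the extent of H3K27ac peaks at the foot. The pair of peaks near 27.7 and 32.7 kb stands above the other pSMAD1/5/9 peaks in both replicates, control cells have 1 pSMAD1/5/9 peak at 60.5 kb, and SMAD4 has the pair in both conditions.

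The sites of Vgll4 lay in a broad H3K27ac domain. After BMP6, a peak of 53550 bp, from 114830661 to 114884210, ranked 3 among 78050 H3K27ac peaks. Its signal was 11138 in the first replicate column and 34787 in the second, at ranks 23 and 3. In control cells 5 peaks covered 98.6% of the same stretch, the widest of them 36900 bp at rank 70, with ranks of 85 and 94 in the replicates. The signal of H3K27ac peaks went with their width, since the 100 strongest had a median width of 18200 bp after BMP6 and 11050 bp in control cells against 1470 and 1400 bp in the whole lists. Peak boundaries lay on a grid of 70 bp in the first list and 100 bp in the second, and the part of this in the division of the domain was not tested. Over the whole region of 100 kb, H3K27ac covered 82.4% after BMP6 and 73.1% in control cells.

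**Figure D3:**
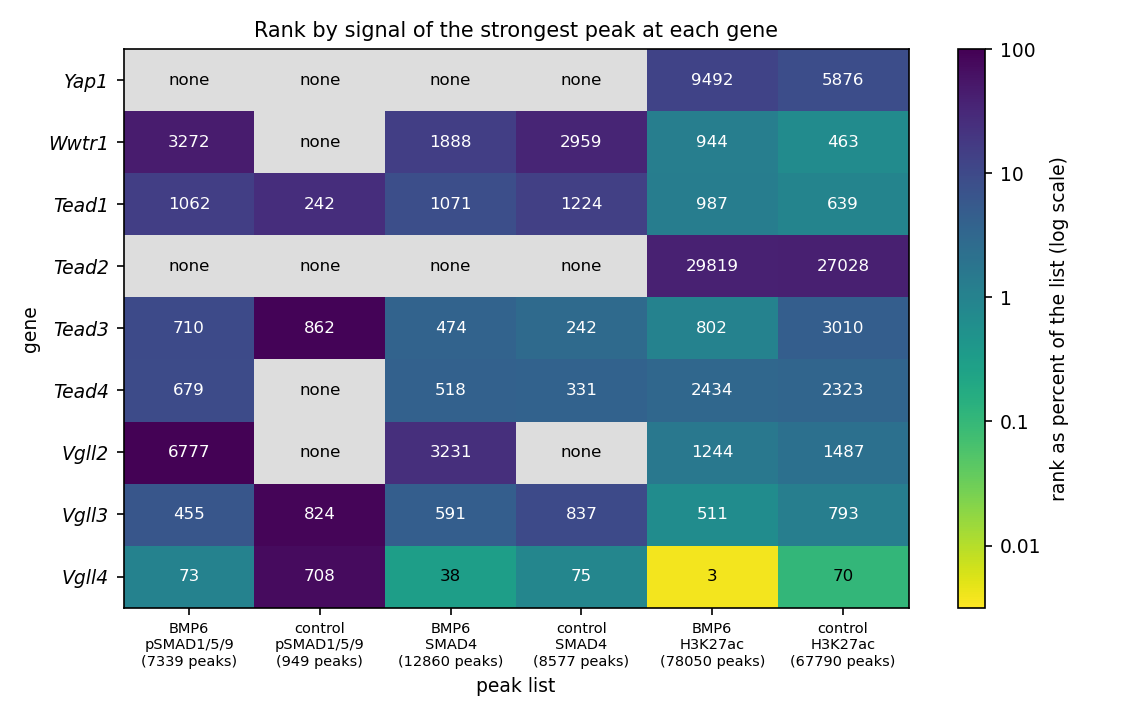
Rank by signal of the strongest peak at each gene (rows) in each of the 6 lists (columns), printed in the cell, with the colour for the rank as a percent of the list on a log scale and grey where no peak was listed. Vgll4 has the best rank of the 9 genes in every list but that of control pSMAD1/5/9, where Tead1 has rank 242, and Yap1 and Tead2 have ranks for H3K27ac only.

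By the rank of the strongest pSMAD1/5/9 peak after BMP6, the order of the members was Vgll4 (73), Vgll3 (455), Tead4 (679), Tead3 (710), Tead1 (1062), Wwtr1 (3272) and Vgll2 (6777). The ranks of the replicates at these peaks did not overlap between Vgll4 (73 and 82) and Vgll3 (478 and 499). Those of Vgll3 lay within the span of Tead4 (385 to 1843) and of Tead3 (449 to 1649), and that of Tead1 (711 to 1468) lay within both, so that the order of Tead4, Tead3 and Tead1 was not resolved, nor that of Vgll3 against Tead4 and Tead3. Vgll3 ranked better than Tead1 in both replicates. Wwtr1 (2607 to 3844) and Vgll2 (5885 to 7160) stood apart from them and from each other. Replicate ranks were made only among peaks that passed the IDR threshold, so that some agreement between replicates was required beforehand.

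**Figure D4:**
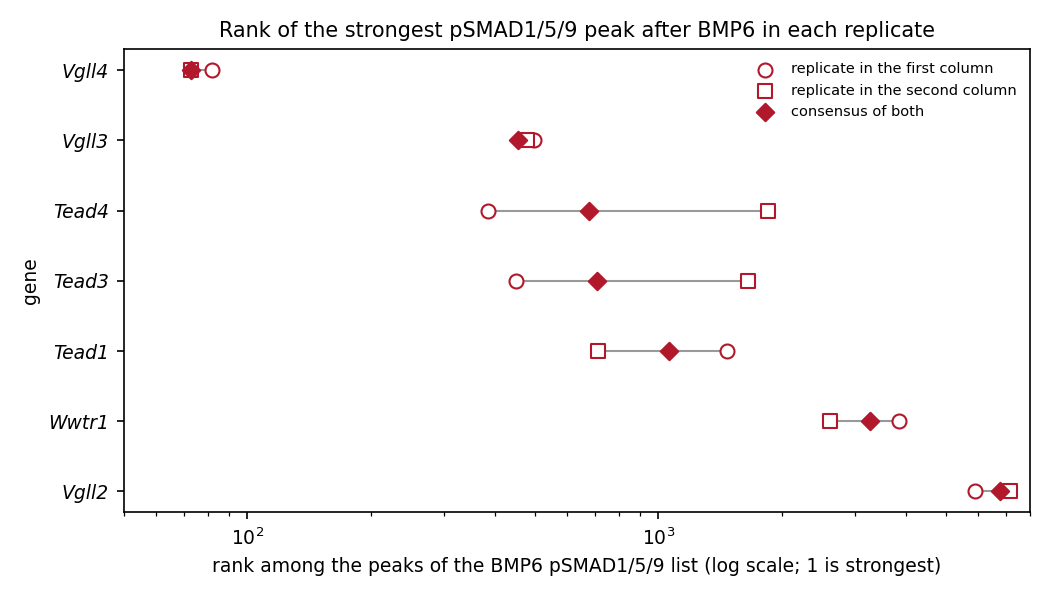
Rank of the strongest pSMAD1/5/9 peak after BMP6 (x axis, log scale) at the 7 genes that had one, in the replicate of the first column (circle), that of the second column (square) and their consensus (diamond). Vgll4 stands apart at ranks 73 to 82, whereas the lines of Tead4, Tead3 and Tead1 overlap.

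Merged over the 4 SMAD lists, the peaks made 47 sites, and all 47 overlapped H3K27ac in both conditions. In the whole lists, 98.2% of pSMAD1/5/9 peaks after BMP6 overlapped H3K27ac after BMP6 and 97.5% that of control cells. For SMAD4 the share was 95.7% after BMP6 and 96.4% in control cells, each with H3K27ac of the same condition. The most frequent combination, at 14 sites of 6 members, was pSMAD1/5/9 after BMP6 with SMAD4 in both conditions. SMAD4 alone was listed after BMP6 at 9 sites and in control cells at 7, and in both conditions at 2 sites of Tead1. pSMAD1/5/9 after BMP6 was listed without SMAD4 at 5 sites. The 3 sites in all 4 lists were those of Tead1 at 205 kb, of Vgll3 at the TSS and of Vgll4 at 60.5 kb, and in each of them the IDR of the control pSMAD1/5/9 peak was above 0.01.

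Of the 28 pSMAD1/5/9 peaks after BMP6, 3 (10.7%, Wilson 95% interval 3.71 to 27.2%) overlapped a control pSMAD1/5/9 peak, near the 11.4% of the whole list. In the regions of 3 of the 9 members, Wwtr1, Tead4 and Vgll2, pSMAD1/5/9 was listed after BMP6 and nowhere in control cells, and this held for 23.5% of all genes. Among those with a pSMAD1/5/9 peak after BMP6, these were 3 of 7 members and 5110 of 6322 genes. Of the same 28 peaks, 20 (71.4%, 52.9 to 84.7%) overlapped SMAD4 after BMP6, where the whole list had 73.2%. Also 20 overlapped SMAD4 of control cells (71.4%, 52.9 to 84.7%), where the whole list had 57.2%. Among SMAD4 peaks after BMP6, 20 of 32 (62.5%, 45.3 to 77.1%) overlapped SMAD4 of control cells, where the whole list had 45.5%. In the other direction, 19 of 31 control SMAD4 peaks (61.3%, 43.8 to 76.3%) overlapped SMAD4 after BMP6, where the whole list had 69.7%. For these shares of peaks, the value of the whole list lay within the interval of the members. It lay below the interval in the following cases. Of the 32 SMAD4 peaks after BMP6, 20 (62.5%, 45.3 to 77.1%) overlapped pSMAD1/5/9 after BMP6, where the whole list had 42.7%. Of the 135 H3K27ac peaks after BMP6, 110 (81.5%, 74.1 to 87.1%) overlapped H3K27ac of control cells, where the whole list had 72.0%. The intervals count peaks, which are not replicates.

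By position, 17 of the 28 pSMAD1/5/9 peaks after BMP6 lay in introns, 4 within 2 kb of the member's own canonical TSS, 2 over exons and 5 downstream. None lay upstream beyond 2 kb. Other starts were not counted as TSS. The peaks at the TSSs of Rpl10a and Fance are thus among those downstream, and that of Tead4 near its other start is among those in introns. Positions in the whole list were not classed in this way. Within the 200 bp around the summit, the TEAD core was present in 6 of these 28 peaks (21.4%) and in 15.8% of the whole list. The E-box was present in 13 (46.4%) and in 31.1%, AP-1 in 4 (14.3%) and in 15.5%, GGCGCC in 3 (10.7%) and in 7.75%, and GGAGCC in 5 (17.9%) and in 25.2%. The SMAD palindrome was found in none of the 28 and in 0.518% of the list. Each motif was counted separately, so that matches to different motifs can share bases, and a match describes letters, not binding. The peak of Vgll4 at 32.7 kb and that of Tead3 at 10.0 kb each held a TEAD core, while that of Vgll4 at 27.7 kb held an E-box only, outside the bases printed above.

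The list of 25 genes of the Hippo pathway includes Vgll1, which encodes another VGLL protein. Of the 25, 13 (52.0%) had a pSMAD1/5/9 peak after BMP6 and 2 (8.0%) in control cells, and SMAD4 was listed at 19 (76.0%) and 16 (64.0%). Of all genes, 29.1% and 5.97% had pSMAD1/5/9 and 39.3% and 30.8% had SMAD4, so that the share of 8.0% was near that of all genes. The 3 with the best-ranked pSMAD1/5/9 peak were Frmd6, an upstream regulator (rank 223), Amotl2, an angiomotin that binds YAP (rank 273, at 338 bp from its TSS), and Map4k4, a kinase acting on LATS (rank 1878). The peak of Frmd6 lay 65886 bp from its TSS and nearest to that of Actr10. The best-ranked peaks of Ptpn14, Dchs1, Limd1 and Tnik also lay nearest to the TSS of another gene. Region length was not matched to that of all genes, and the region of Tnik spanned 452.6 kb. Amotl2 (rank 402) and the cadherin gene Dchs1 (rank 694) had the control peaks. Fat4, Sav1, Vgll1 and Amot had no SMAD peak in any list.

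The list of 22 YAP/TAZ target genes is a conserved signature used in cancer work. Whether YAP or TAZ regulates them in MuSCs was not examined here. Of the 22, 14 (63.6%) had a pSMAD1/5/9 peak after BMP6 and 4 (18.2%) in control cells. SMAD4 was listed at 17 (77.3%) and 12 (54.5%). These compare with the same 29.1%, 5.97%, 39.3% and 30.8% of all genes. All 14 also had SMAD4 after BMP6. Amotl2, which is in both lists as are Lats2 and Ptpn14, had the best rank, followed by the matricellular gene Ccn1 (rank 967) and by Crim1 (rank 1282), whose peak lay nearest to the TSS of Fez2. The best-ranked peaks of Ptpn14 and Axl also lay nearest to the TSS of another gene. The genes with control pSMAD1/5/9 peaks were the receptor tyrosine kinase gene Axl (rank 257), Amotl2 (402), Ccn1 (751) and the stress-response gene Gadd45a (797). Fjx1, F3, Igfbp3, Foxf2 and Dock5 had no SMAD peak. No test of these shares against those of all genes was made. Region length was not matched either, and the region of Rbms3 spanned 719.4 kb.

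**Figure D5:**
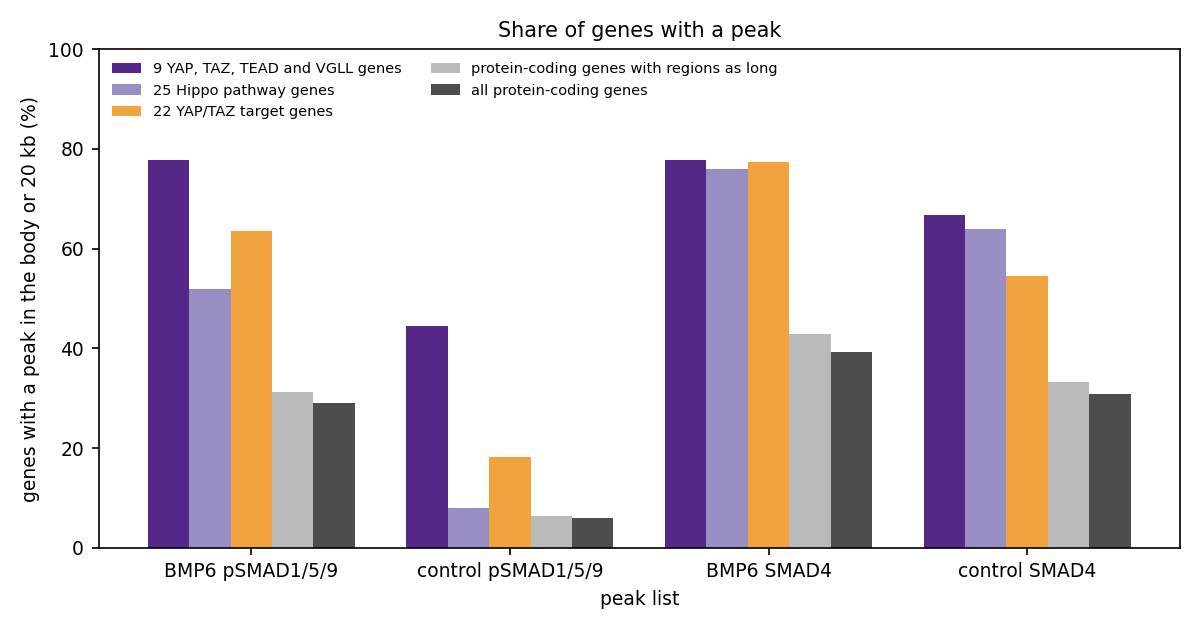
Share of genes with a peak in the gene body or the 20 kb on either side (y axis, percent) in the 4 SMAD lists, for the 9 members, 25 Hippo pathway genes, 22 YAP/TAZ target genes, the 15591 genes with regions in the length range of the members (not matched in length) and all 21757 genes. The bars of the members reach 77.8% for pSMAD1/5/9 after BMP6 and 44.4% in control cells, and those of all genes 29.1% and 5.97%.

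Over the 6 lists, the gene whose ranks were most like those of Vgll4 was Abca4, at a Euclidean distance of 6.79 between the percentiles of the strongest peaks. Inafm2 and Ccdc9b followed at 8.21 each and had the same peaks. Abca4 had pSMAD1/5/9 at rank 246 after BMP6 and 654 in control cells, and SMAD4 at ranks 191 and 63.

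By H3K27ac within 2 kb of the TSS, 9 of 10 MuSC markers were marked after BMP6, from Myf5 at rank 14 and Pax7 at rank 17 to Chodl at rank 25691 and Sdc4 at rank 27730, while Calcr was not. Of the markers of differentiated muscle 5 of 6 were marked, of fibro-adipogenic cells 1 of 4 (Dpt, rank 2599), of endothelial cells 0 of 3 and of leukocytes 1 of 3 (Cd68, rank 50045).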

How the data were processed

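According to the methods, the authors subsampled reads to equal depth for each antibody, aligned them to GRCm39 with Bowtie2 2.5.4 and filtered them with SAMtools 1.21 (versions also in the submitters' processing notes). JAMM called peaks in each biological replicate, and IDR combined 2 replicates of a condition, ranked by signal, at an IDR of at most 0.05. The deposited lists give the peak caller's signal for the consensus and for each replicate, without replicate numbers, and the IDR as −log10. In every list the consensus signal was the sum of both replicates. Read numbers are not given for the peaks, and their depth is therefore unknown. Signal was compared only within a list. The 2 libraries made without a primary antibody were not used here.

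Positions were made 1-based and set against GENCODE canonical transcripts of GRCm39. Location was TSS (within 2 kb of the canonical TSS of the member), exon, intron or flank, in that order. Shares have Wilson 95% intervals, for counting error only. Motifs were counted on both strands. Tools were Python 3.11.15, numpy 2.4.6, pandas 2.3.3, scipy 1.17.1 and matplotlib 3.10.9. On simulated data, 5532 of 5532 overlaps, 2000 of 2000 nearest TSSs and 1200 of 1200 planted motifs were recovered. No test between conditions was made, since each condition has 1 consensus list.

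All 9 members are named. From the gene lists, the 3 genes with the best-ranked pSMAD1/5/9 peak after BMP6 and those with a control peak are named, and those without any SMAD peak were named after their values were seen. The same holds for those whose best-ranked peak lay nearest another gene's TSS, and for the longest region of each list. The members and lists were chosen with earlier results of these data known. Alternatives covered the IDR threshold, the region, the transcripts, the nearest TSS, the overlap, each replicate column and the motif window.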

Additional observations from a re-analysis of the deposited data

How the results depend on the processing

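Of 138 alternative values, 108 stayed within 1.5 times the count or rank, or within the interval of the share, and 30 moved. At an IDR of at most 0.01, peaks at the members fell to 13 for pSMAD1/5/9 after BMP6, 0 in control cells (0 members), and 16 and 15 for SMAD4 after BMP6 and in control cells, and 50.1%, 14.9%, 49.2% and 41.7% of these whole lists passed. Of pSMAD1/5/9 peaks after BMP6, 0% then overlapped a control peak, since no control peak was left. Hippo pathway genes with a peak fell to 8 for pSMAD1/5/9 after BMP6, 0 in control cells and 7 for control SMAD4, and YAP/TAZ target genes to 0 for control pSMAD1/5/9. In the proximal window, which reaches 1.5 kb upstream and 0.5 kb downstream, members with a peak were 4 and 1 for pSMAD1/5/9 after BMP6 and in control cells and 3 for SMAD4 after BMP6, and peaks were 4 and 1, 3 and 5 for SMAD4, and 10 and 9 for H3K27ac. In the gene body alone, Hippo pathway genes were 1 for control pSMAD1/5/9 and 9 for control SMAD4, and target genes 9 and 2 for pSMAD1/5/9. With an overlap of 50% of both peaks, 65.9% of H3K27ac peaks after BMP6 overlapped control peaks, and pSMAD1/5/9 peaks overlapped SMAD4 in 50% and H3K27ac in 0%, since H3K27ac peaks are wider. With 1 replicate left out, the best pSMAD1/5/9 rank of a gene was 449 to 1421 for Tead3 and 385 to 1629 for Tead4, and ranks of the other 5 stayed within 1.5 times. An alternative chosen after seeing the data, the span of all annotated transcripts, adds 2 protein-coding starts of Vgll4 that lie 47.3 and 48.2 kb upstream of the canonical TSS. It changed no count of SMAD peaks. No paired analysis was possible because the replicate columns carry no number and no test was made. The number of replicates limits the precision.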

Other observations

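Tead1 had 59 H3K27ac peaks after BMP6 and 61 in control cells, and only 21 and 9 of the 21757 genes had as many. H3K27ac covered 68.5% and 63.1% of its region of 267 kb. This was the longest region of the members, and the counts of genes were not matched in region length.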
